A study of Rattus norvegicus with 2 samples.

Results

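Genes of the splicing machinery and of the hnRNP and neuronal RNA-binding protein families were taken from the gene table by symbol. The families are Srsf, Hnrnp, Sf3a and Sf3b, Snrp, U2af, Rbfox, Nova, Ptbp, Celf and Elavl. They gave 82 of 21224 rows, of which 16 are neuronal regulators (Rbfox, Nova, Celf, Elavl and Ptbp2) and 66 are called core factors here, since they hold every other row. The filter kept rows whose FPKM averaged 1 or more across the pair of libraries, and 78 of the 82 passed it, all 16 neuronal regulators and 62 core rows. FPKM values are reads divided by gene length and by the total reads of their library.

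The study knocked down Ythdf3, a reader of the m6A mark on messenger RNA, in rat cortical neurons taken at embryonic day 18. One group, siYthdf3, received small interfering RNA against Ythdf3, and the other, siNC, received a negative control small interfering RNA. Each group is 1 library, so nothing below could be set against replicate spread, and no test between conditions was made. The labels used here do not state strain, time after transfection, days in culture or number of embryos, and they name no hypoxic sample.

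Ythdf3 itself was at 6.93 FPKM in siYthdf3, against 9.38 FPKM in siNC, a ratio of 0.739 with a 95% counting interval of 0.675 to 0.809. The targeted gene was thus lower in the library labelled siYthdf3, but still present. Over all filtered rows 22.2% had an interval below 1, and at least 6.8% lay lower than Ythdf3 on the log2 scale used below. Its value alone does not set Ythdf3 apart from such rows. The siYthdf3 library held 22586543 assigned reads and the siNC library 15392218. Counting intervals come from these reads and cover counting error only. For abundant genes they exclude 1 at differences of a few percent, so counts of them are read beside the share over the whole table.

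Splicing removes introns from pre-messenger RNA. The spliceosome is built from small nuclear RNAs with their Sm and specific proteins (snRNPs), and U2AF and SF3A/SF3B mark the end of the intron and the branch point. SR proteins mostly promote and hnRNP proteins often repress the use of an exon, and neurons add the RBFOX, NOVA, CELF and neuronal ELAVL proteins. As neural progenitors become neurons, PTBP1, which represses many neuronal exons, gives way to its paralogue PTBP2.

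Most core factors had a slightly lower level in siYthdf3 than in siNC, and most neuronal regulators a slightly higher one. On the scale of log2(FPKM + 0.5), siYthdf3 over siNC, the median was 0.11 over the 16 neuronal regulators and -0.14 over the 62 core rows, against -0.01 over the 13172 rows of the table that passed the same filter. Of the neuronal regulators 12 were above 0 and 4 below, and of the core rows 10 were above and 52 below. The difference between both medians was 0.26 and lay between 0.21 and 0.32 under 13 other settings. It is a description of these 2 libraries, with no test behind it.

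These differences were small. None of the 78 members was 2-fold higher or 2-fold lower, where 0.706% of all filtered rows were at least 2-fold higher and 0.896% at least 2-fold lower. At 1.5-fold, 0 members were higher and 2 lower, Ptbp1 and the pseudogene row Snrpc-ps3, where 2.41% of all rows were higher and 3.95% lower. Shares this small amount to few of 78 rows, so these counts are not read as a difference from the table. Members were also better expressed. Their median level was 41.7 FPKM in siYthdf3 and 46.4 FPKM in siNC, against 7.77 and 7.92 FPKM over all filtered rows.

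Counting intervals lay above 1 for 9 of the 16 neuronal regulators and below 1 for 1, Celf6. They lay above 1 for 5 of the 62 core rows and below 1 for 40. Over all filtered rows 20% of intervals lay above 1 and 22.2% below, so 56.3% of neuronal regulators above and 64.5% of core rows below exceed those shares. Members are well expressed, which narrows their intervals. Among rows that averaged 20 FPKM or more, a limit added after the data were seen, 28.0% lay above 1 and 37.3% below. There, 7 of 8 neuronal regulators had an interval above 1, and 34 of 45 core rows had one below 1. At the 1 FPKM filter without the more broadly expressed Elavl1, Celf1, Celf2 and Rbfox2, 6 of 12 neuronal regulators lay above 1 and 1 below.

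**Figure D1:**
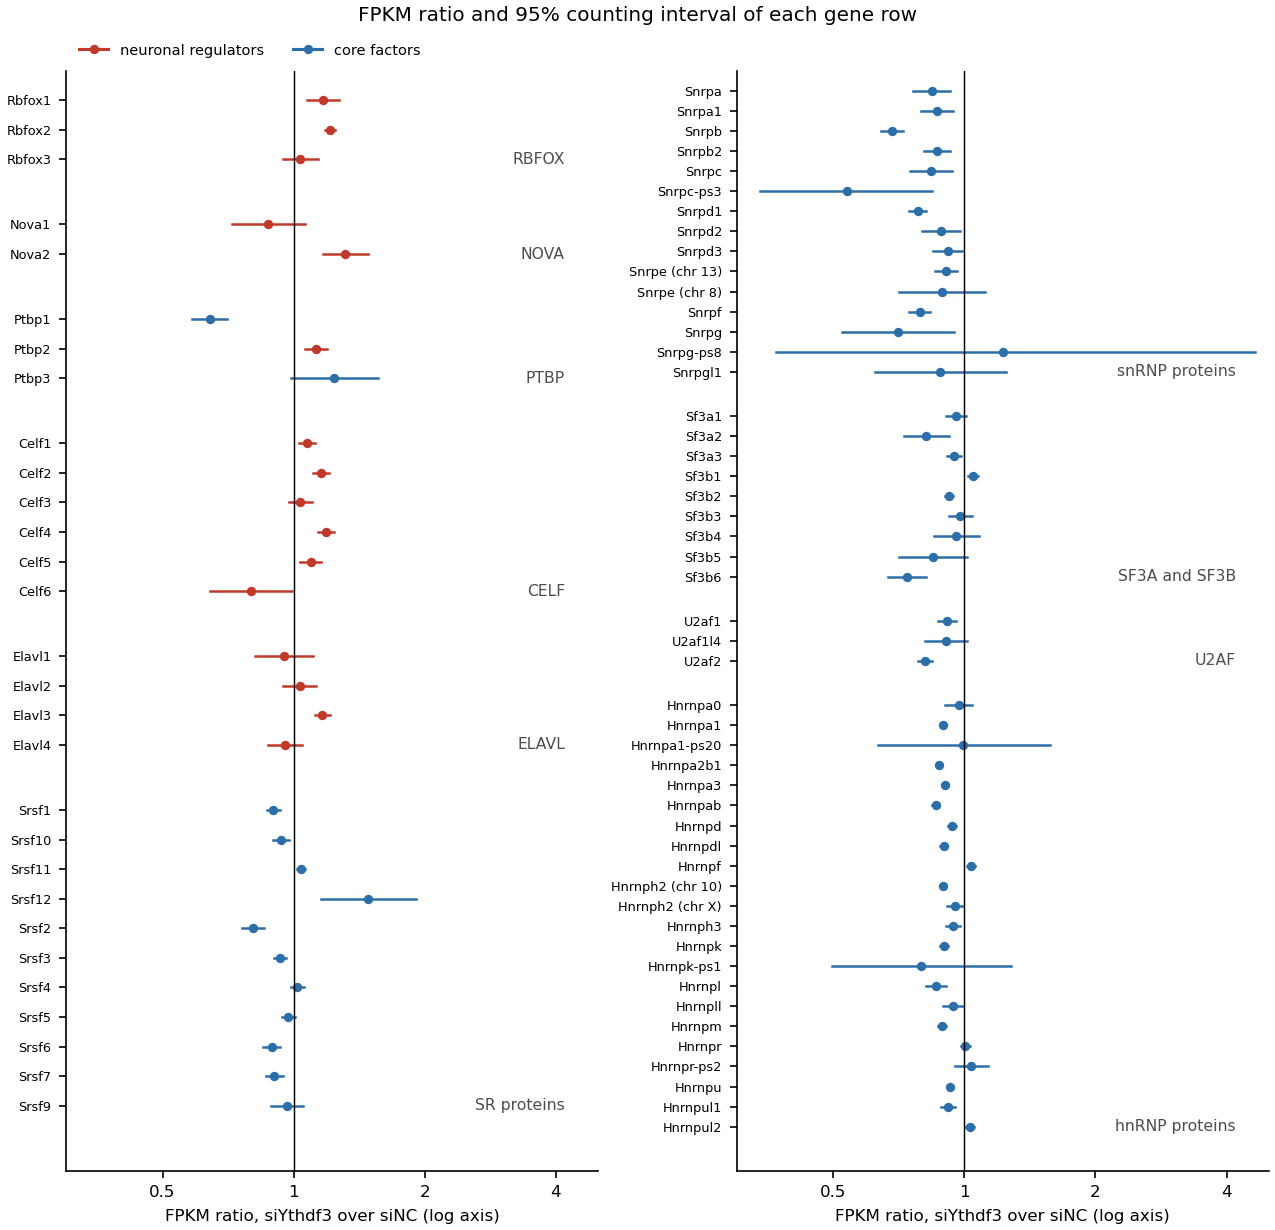
Ratio of FPKM values, siYthdf3 over siNC, on a log axis for the 78 gene rows that passed the filter. Points are ratios, horizontal lines are 95% counting intervals, and the vertical line marks a ratio of 1. Most blue points (core factors) lie left of 1 and most red points (neuronal regulators) right of it, with Ptbp1 at 0.641 and Srsf12 at 1.48 among the farthest.

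Ptbp1 (ENSRNOG00000010448, chromosome 7, 9842574 to 9852367, minus strand, build not given in the sources used here) was the core factor farthest below 1 outside pseudogene rows. It was at 9.66 FPKM in siYthdf3, against 15.1 FPKM in siNC, from 926 reads in siYthdf3 and 984 in siNC. The ratio was 0.641 (counting interval 0.586 to 0.702), and its log2 difference of -0.62 was lower than that of all but 3.5% of filtered rows. Ptbp2 (chromosome 2, 207812920 to 207873506), which takes over from Ptbp1 in neurons, was at 39.7 FPKM in siYthdf3, against 35.2 FPKM in siNC, a ratio of 1.13 (1.06 to 1.19). The pair thus lay on opposite sides of 1, and the level of Ptbp2 was 4.11 times that of Ptbp1 in siYthdf3 (interval 3.81 to 4.42) and 2.34 times in siNC (2.16 to 2.53). Ptbp3, another paralogue, was low, at 1.55 FPKM in siYthdf3, against 1.25 FPKM in siNC, and its interval of 0.984 to 1.56 includes 1.

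Ptbp1 is also known from progenitors, and markers of dividing cells and progenitors were mostly lower in the same library. The 12 cell cycle markers had a median log2 ratio of -0.88 and the 12 radial glia and progenitor markers one of -0.33. Their part in the Ptbp1 value was not tested. In a bulk library, fewer cells of a type and less RNA per cell cannot be told apart.

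The 250 bases before the start sites of this pair, of Snrpb and of Nova2 are shown, because these are the PTBP pair and the core snRNP gene and neuronal gene farthest from 1 among members at 5 FPKM or more. Sequences are RefSeq's of build GRCr8, 5′ to 3′ on the gene's strand. Capitals mark matches, on either strand, to any motif of a list given after the sequences. They lie at chr7:10502958-10503207 (minus strand, Ptbp1), chr2:210558278-210558527 (minus strand, Ptbp2), chr3:137832480-137832729 (minus strand, Snrpb) and chr1:87700078-87700327 (plus strand, Nova2).
Ptbp1: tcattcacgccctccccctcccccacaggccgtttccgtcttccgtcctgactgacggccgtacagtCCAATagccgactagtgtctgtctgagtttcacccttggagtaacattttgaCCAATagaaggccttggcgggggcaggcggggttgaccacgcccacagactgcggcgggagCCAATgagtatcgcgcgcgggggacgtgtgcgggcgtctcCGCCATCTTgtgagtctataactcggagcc
Ptbp2: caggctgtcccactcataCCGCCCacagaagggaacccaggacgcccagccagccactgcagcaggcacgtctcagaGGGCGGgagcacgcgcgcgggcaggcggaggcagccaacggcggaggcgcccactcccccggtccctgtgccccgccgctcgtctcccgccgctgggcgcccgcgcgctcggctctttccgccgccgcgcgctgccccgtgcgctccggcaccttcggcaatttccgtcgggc
Snrpb: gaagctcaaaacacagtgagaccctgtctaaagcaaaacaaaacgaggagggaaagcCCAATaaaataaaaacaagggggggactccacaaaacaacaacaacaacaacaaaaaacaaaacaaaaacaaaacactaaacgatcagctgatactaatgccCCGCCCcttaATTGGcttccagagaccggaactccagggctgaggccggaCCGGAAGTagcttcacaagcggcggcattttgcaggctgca
Nova2: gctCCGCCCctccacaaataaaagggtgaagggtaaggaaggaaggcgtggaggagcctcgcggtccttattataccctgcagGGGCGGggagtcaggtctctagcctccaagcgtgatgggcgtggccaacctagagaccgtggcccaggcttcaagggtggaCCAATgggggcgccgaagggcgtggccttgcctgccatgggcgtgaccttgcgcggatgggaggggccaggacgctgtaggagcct

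The Ptbp1 promoter held 3 CCAAT boxes (CCAAT), which begin 183, 131 and 70 bases before the start site, and a YY1 core (AAGATGGCG) on the opposite strand at 30 bases. No GC box (GGGCGG) was matched in it. The Ptbp2 promoter held 2 GC boxes and none of the other motifs, and at 75.6% G and C it was richer in these bases than the Ptbp1 promoter at 61.2%. Snrpb had 2 CCAAT boxes, 1 GC box and 1 ETS site (CCGGAAGT), and Nova2 had 2 GC boxes and 1 CCAAT box.

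Of 80 distinct member symbols, 64 had a promoter in the RefSeq table, 12 of them neuronal regulators and 52 core factors. Their median G and C content was 61.4% in neuronal regulators and 60.4% in core factors, against 52.0% over 27457 promoters, and the median number of CG pairs was 16.5 and 20.5, against 6. GC boxes were in 7 of 12 neuronal and 29 of 52 core promoters, where 32.4% of all promoters held one. The ETS site was in 0 of 12 neuronal and 7 of 52 core promoters (Hnrnpd, Sf3a2, Sf3a3, Snrpb, Snrpe, Srsf4 and Srsf5), where 3.29% of all held one. CCAAT was in 4 neuronal and 25 core promoters (34.3% of all), and TATAAA was in 0 neuronal and 6 core promoters (13.1% of all). The YY1 core was in 1 core promoter, that of Ptbp1 (0.736% of all), and an NRF1 core (GCATGCGC) in 4 core promoters (2.38% of all). An E2F site in the form TTTCCCGC was in 4 core promoters (0.856% of all) and in the form TTTGGCGC in 0 members (0.426% of all). A REST half-site (TTCAGCACC) was in 1 promoter, that of Elavl4 (0.317% of all). A match describes letters in this window and not binding.

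Rbfox1 and Rbfox2 differed in the same direction. RBFOX proteins bind short motifs beside exons and promote or repress them by their position. Rbfox2 (chromosome 7, 108810628 to 109054403), found in many tissues, was at 65.5 FPKM in siYthdf3, against 54.1 FPKM in siNC, a ratio of 1.21 (1.18 to 1.24). Rbfox1, which is restricted to neurons, heart and muscle, was at 11.8 FPKM in siYthdf3, against 10.1 FPKM in siNC, a ratio of 1.17 (1.07 to 1.27). Rbfox3, whose protein is the neuronal marker NeuN, was at 17.0 FPKM in siYthdf3, against 16.4 FPKM in siNC, and its interval of 0.943 to 1.14 includes 1. Rbfox2 made up 69.5% of the summed FPKM of the 3 genes in siYthdf3 and 67.1% in siNC.

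Of the NOVA pair, Nova2 had an interval above 1 and Nova1 one that includes 1. NOVA proteins regulate exons of synaptic proteins, and in mouse Nova2 is the form of the neocortex while Nova1 is stronger in hindbrain and spinal cord. Nova2 (chromosome 1, 78572279 to 78608021) was at 11.8 FPKM in siYthdf3, against 8.97 FPKM in siNC, from 832 reads in siYthdf3 and 432 in siNC. Its ratio of 1.31 (1.17 to 1.48) was the highest among neuronal regulators. Nova1 was at 2.34 FPKM in siYthdf3, against 2.68 FPKM in siNC, with an interval of 0.721 to 1.06 that includes 1. The level of Nova2 was 5.03 times that of Nova1 in siYthdf3 and 3.35 times in siNC, with intervals of 4.35 to 5.82 and 2.82 to 4.0 that do not overlap. These intervals cover counting error only. For Elavl3 over Elavl1 they overlap, at 7.73 to 9.45 in siYthdf3 and 6.19 to 7.87 in siNC. Those of Rbfox2 over Rbfox1 overlap too, at 5.27 to 5.86 and 4.99 to 5.74. For Celf4 over Celf6 they do not, at 16.6 to 22.3 and 11.0 to 15.2. Celf4 and Celf6 have the highest and the lowest ratio of the CELF genes, so that gap follows from their choice. These pairs were picked without a share over other gene pairs, and the gaps are not read as results.

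CELF proteins bind GU-rich elements and act in splicing and in messenger RNA decay. Celf4 (chromosome 18, 16786867 to 17064786), a neuronal member, had the highest level of the 6, at 76.7 FPKM in siYthdf3, against 64.7 FPKM in siNC, with a ratio of 1.19 (1.14 to 1.24). Celf2 was at 48.9 FPKM in siYthdf3, against 42.3 FPKM in siNC, a ratio of 1.15 (1.11 to 1.2). Both Celf1, the broadly expressed founding member, and the neural Celf5 had smaller ratios, 1.07 (1.03 to 1.12) and 1.09 (1.03 to 1.16). Celf3 was at 33.6 FPKM in siYthdf3, against 32.4 FPKM in siNC, and its interval of 0.974 to 1.10 includes 1. Celf6 alone among neuronal regulators had an interval below 1, at 4.0 FPKM in siYthdf3, against 5.01 FPKM in siNC, a ratio of 0.798 (0.642 to 0.993). That interval nearly reaches 1, and Celf6 was not below 1 after rescaling to TPM, after centring, after removal of a length trend or with a 99% interval.

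Elavl3 (chromosome 8, 20550201 to 20583641) was the most abundant neuronal regulator. ELAVL proteins bind AU- and U-rich elements, stabilise messenger RNAs and regulate splicing, Elavl1 in most cells and the other genes in neurons. Elavl3 was at 131 FPKM in siYthdf3, against 113 FPKM in siNC, a ratio of 1.16 (1.12 to 1.21), and held 76.2% of the family's summed FPKM in siYthdf3 and 72.9% in siNC. The other ELAVL genes lay between 12.1 and 16.2 FPKM in both libraries. Their intervals all include 1, for Elavl1 at a ratio of 0.950 (0.816 to 1.11), for Elavl2 at 1.03 (0.945 to 1.13) and for Elavl4 at 0.956 (0.874 to 1.05). The family median of -0.01 changed sign after rescaling to TPM, after centring and after removal of a length trend, so no direction is given for it.

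**Figure D2:**
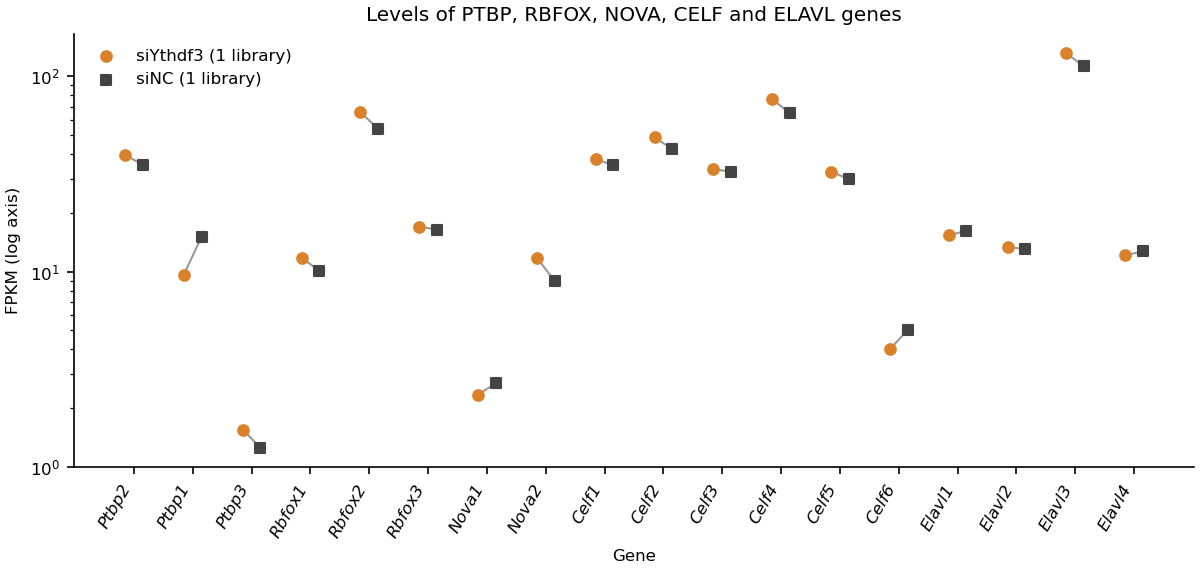
FPKM on a log axis of the 3 PTBP genes and the other neuronal regulators, with the siYthdf3 library (orange circles) left of the siNC library (grey squares) and a line joining the 2 values of a gene. Ptbp1 is at 9.66 FPKM in siYthdf3, against 15.1 FPKM in siNC, while Ptbp2, Rbfox2, Nova2, Celf4 and Elavl3 are each higher in siYthdf3.

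Among core factors the proteins of the snRNPs had the lowest median, -0.21 over 15 rows. Of their intervals 12 lay below 1 (80%) and 0 above, against 37.3% and 28.0% of rows that averaged 20 FPKM or more. The summed level of the snRNP genes was 686 FPKM in siYthdf3, against 827 FPKM in siNC, a ratio of 0.830. Snrpb (chromosome 3, 117370100 to 117379326), which encodes the SmB/B′ protein of the Sm ring, was at 33.9 FPKM in siYthdf3, against 49.8 FPKM in siNC, a ratio of 0.681 (0.643 to 0.721). Further Sm ring genes followed. Snrpd1 was at 114 FPKM in siYthdf3, against 146 FPKM in siNC (ratio 0.782, interval 0.747 to 0.818), and Snrpf at 140 FPKM in siYthdf3, against 177 FPKM in siNC (0.789, 0.746 to 0.834). Snrpg was lower as well, at 9.62 FPKM in siYthdf3, against 13.7 FPKM in siNC, on 96 reads in siYthdf3 and 93 in siNC (0.703, 0.523 to 0.946). Snrpd2, Snrpd3 and the Snrpe row on chromosome 13 had ratios of 0.883 to 0.915, with upper limits of 0.978, 0.987 and 0.960. On the FPKM scale all 7 Sm ring genes thus had a row with an interval below 1. After rescaling to TPM the intervals of Snrpd2 and Snrpd3 include 1.

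Genes for proteins particular to 1 snRNP also had intervals below 1. The U1 genes Snrpa and Snrpc had ratios of 0.842 (0.763 to 0.928) and 0.838 (0.750 to 0.936). The U2 genes Snrpa1 and Snrpb2 had ratios of 0.864 (0.795 to 0.940) and 0.865 (0.809 to 0.925). Snrpc-ps3, a pseudogene row, had the lowest log2 ratio of all members, -0.77, at 2.21 FPKM in siYthdf3, against 4.13 FPKM in siNC, from 37 reads in siYthdf3 and 47 in siNC. Small snRNP genes have near-identical copies, among them the second Snrpe row on chromosome 8, Snrpgl1 and Snrpg-ps8. How reads were split between such copies is uncertain, and the intervals of these 3 rows include 1.

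SF3A and SF3B hold the U2 snRNP at the branch point. Over their 9 genes 4 intervals lay below 1 (44.4%) and 1 above (11.1%), and the median was -0.08. The share below 1 was 22.2% over all filtered rows and 37.3% among rows that averaged 20 FPKM or more. With 9 genes, no difference from the latter share is read. Sf3b6, whose protein contacts the branch point, stood lowest at 41.6 FPKM in siYthdf3, against 56.3 FPKM in siNC, a ratio of 0.739 (0.667 to 0.818). Sf3a2 followed at 15.4 FPKM in siYthdf3, against 18.8 FPKM in siNC, a ratio of 0.819 (0.726 to 0.923). Sf3b1, the large scaffold subunit, was the member above 1, at 115 FPKM in siYthdf3, against 110 FPKM in siNC, a ratio of 1.05 (1.02 to 1.08). Subunits of SF3B thus lay on both sides of 1. Sf3b2 and Sf3a3 had ratios of 0.920 and 0.947 with intervals below 1, and the intervals of Sf3a1, Sf3b3, Sf3b4 and Sf3b5 include 1.

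U2AF reads the end of the intron, its large subunit the pyrimidine tract and its small subunit the final AG. U2af2, the large subunit, was at 43.4 FPKM in siYthdf3, against 53.3 FPKM in siNC, a ratio of 0.814 (0.783 to 0.845). U2af1, the small subunit, was at 171 FPKM in siYthdf3, against 187 FPKM in siNC, a ratio of 0.913 (0.871 to 0.957). The paralogue U2af1l4 had a similar ratio of 0.907 on fewer reads, and its interval of 0.814 to 1.01 includes 1.

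SR proteins carry domains rich in arginine and serine, and most bind exonic enhancers. Of 12 rows 11 passed the filter, with a median of -0.10, 6 intervals below 1 (54.5%) and 2 above (18.2%). Below 1 lay 22.2% of all filtered rows and 37.3% of rows that averaged 20 FPKM or more. With 11 rows, no difference from the latter share is read. Srsf2, a classical enhancer-binding member, was lowest at 79.8 FPKM in siYthdf3, against 99 FPKM in siNC, a ratio of 0.806 (0.760 to 0.855). Srsf1, Srsf3, Srsf6, Srsf7 and Srsf10 had ratios of 0.891 to 0.933, each with an interval below 1. Srsf12, an SR protein that in human acts as a splicing repressor, stood at the other end. It was at 6.53 FPKM in siYthdf3, against 4.41 FPKM in siNC, from 204 reads in siYthdf3 and 94 in siNC, a ratio of 1.48 (1.15 to 1.91), the highest of the 78 members on the log2 scale at 0.52. Srsf11, the most abundant of the family, had a ratio of 1.04 (1.02 to 1.06), and Srsf4, Srsf5 and Srsf9 had intervals that include 1.

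The hnRNP genes held most of the members' RNA, 6857 of 10066.4 summed FPKM in siYthdf3 and 7574 of 10991 in siNC. These proteins coat nascent transcripts and act in splicing, export and stability. Over 22 rows the median log2 ratio was -0.12, with 15 intervals below 1 (68.2%) and 2 above (9.09%). Among all rows that averaged 20 FPKM or more 37.3% lay below 1 and 28.0% above. Hnrnpa1, which often silences exons, was at 1596 FPKM in siYthdf3, against 1791 FPKM in siNC, a ratio of 0.891 (0.881 to 0.901). Hnrnpa2b1, which is also known as a nuclear reader linked to m6A, was at 876 FPKM in siYthdf3, against 1000.2 FPKM in siNC, a ratio of 0.876 (0.867 to 0.885). The lowest ratios outside pseudogene rows were those of Hnrnpab at 0.859 (0.841 to 0.877) and Hnrnpl, which binds CA-rich elements, at 0.862 (0.818 to 0.908).

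The hnRNP genes formed a narrow band. Hnrnpa3, Hnrnpd, Hnrnpdl, Hnrnph3, Hnrnpk, Hnrnpll, Hnrnpm, Hnrnpu and Hnrnpul1 had ratios of 0.888 to 0.942, each with an interval below 1. Hnrnpf, which binds G-rich elements, and Hnrnpul2 had ratios of 1.04 (1.01 to 1.06) and 1.03 (1.00 to 1.05), and Hnrnpf lay below 0 at -0.06 after a length trend was removed. Hnrnpr was at 258 FPKM in siYthdf3, against 256 FPKM in siNC, with an interval of 0.981 to 1.03. Hnrnpa0 had a ratio of 0.971 (0.905 to 1.04). The table names 2 rows Hnrnph2, on chromosomes 10 and X, with ratios of 0.893 (0.881 to 0.906) and 0.952 (0.913 to 0.992). The RefSeq table has Hnrnph2 on chromosome X and Hnrnph1 on chromosome 10, so the first row is given by its chromosome. Hnrnpr-ps2 was at 32.3 FPKM in siYthdf3, against 31.1 FPKM in siNC, and the intervals of it, Hnrnpa1-ps20 and Hnrnpk-ps1 include 1. The 4 rows below the filter were Hnrnpcl1, Snrpd2l, Snrpnl1 and Srsf5-ps1, all under 1 FPKM in both libraries and with intervals that include 1.

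**Figure D3:**
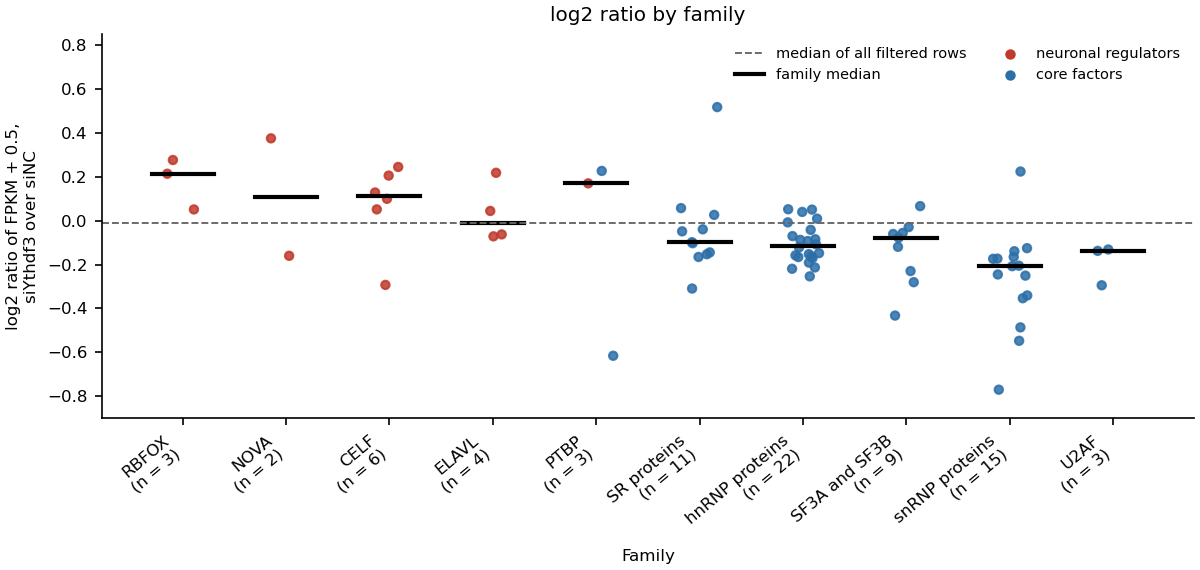
log2 ratio of FPKM + 0.5, siYthdf3 over siNC, of each gene row (points) by family, with the family median as a black bar and the median of all filtered rows, -0.01, as a dashed line. The snRNP proteins have the lowest median at -0.21, and RBFOX the highest at 0.21 over 3 genes.

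Summed over rows, the neuronal regulators were at 554 FPKM in siYthdf3, against 491 FPKM in siNC, a ratio of 1.13. Core factors were at 9513 FPKM in siYthdf3, against 10499.7 FPKM in siNC, a ratio of 0.906. All 82 rows took 2.98% of assigned reads in siYthdf3 and 3.21% in siNC. The core factors, at 2.74% of reads in siYthdf3 and 3.0% in siNC, thus made up most of these reads, and the neuronal regulators took 0.245% in siYthdf3 and 0.215% in siNC.

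Other proteins of the pathway gave a mixed picture. Of 63 matched spliceosome proteins outside the families above, 27 had an interval below 1 and 14 above, with a median log2 ratio of -0.07. Those are 42.9% below and 22.2% above. Over all filtered rows 22.2% lay below and 20% above, and among rows that averaged 20 FPKM or more 37.3% and 28.0%. The median level of this list was 42.1 FPKM in siYthdf3 and 46.4 FPKM in siNC, so its shares lay near those of well expressed rows. The genes with the largest log2 differences were Lsm2 at -0.71, Lsm4 at -0.53 and Lsm3 at -0.33, together with Zmat5, of the minor spliceosome, at -0.35 with an interval that includes 1. Lsm2 to Lsm8 encode the ring on U6 small nuclear RNA and were grouped after these values were seen. Of these 7 genes 6 had an interval below 1 and 0 above, with a median of -0.30, and Lsm7, at -0.09, had one that includes 1. Of 14 genes of snRNP assembly, 5 had an interval below 1 (35.7%) and 1 above (7.14%), with a median of -0.11. Gemin6 and Strap, of the SMN complex, were at -0.52 and -0.25, Gemin7 at -0.23 with an interval that includes 1, and Snupn, the import adaptor of snRNPs, at 0.23.

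SR-related proteins and SR protein kinases had a median that differed in sign from that of the core, though it was small. Of their 21 genes 13 lay above 0 and 8 below, with a median length of 4309 bases, against 2414 for core rows. The median log2 ratio was 0.04, with 10 intervals above 1 and 7 below. Those are 47.6% above and 33.3% below, against 28.0% and 37.3% of rows that averaged 20 FPKM or more. Srrm4, which activates neuronal microexons, was at 19.0 FPKM in siYthdf3, against 15.3 FPKM in siNC, a ratio of 1.24 (1.14 to 1.34). Its paralogue Srrm3 was at 27.4 FPKM in siYthdf3, against 22.5 FPKM in siNC, a ratio of 1.22 (1.14 to 1.31). The SR protein kinase Srpk2 had a ratio of 1.23 (1.19 to 1.27), and Rnps1 one of 0.831 (0.804 to 0.860). Both microexon activators were thus above 1, as were most neuronal regulators.

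Among 34 other splicing regulators, 8 intervals lay above 1 and 14 below, and the median of -0.04 became 0.01 after rescaling to TPM. The shares, 23.5% above and 41.2% below, were near the 28.0% and 37.3% of rows that averaged 20 FPKM or more. Msi1, a progenitor RNA-binding protein, was at -0.45 and Khdrbs2, a neuronal STAR protein, at 0.40. Mbnl2 and Pcbp4 were at -0.31 and -0.30. In the exon junction complex 4 of 7 intervals lay below 1 (57.1%) and 2 above (28.6%), and the median was -0.20. Magohb, Eif4a3, Magoh and Rbm8a, which form its core on messenger RNA, were those below, at -0.43, -0.32, -0.31 and -0.20.

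Members that are longer in the annotation had higher ratios. Across the 78 members Spearman's rho of log2 ratio with gene length was 0.39, across the 62 core rows 0.33 and across all 13172 filtered rows 0.20. Genes share both libraries and are not independent replicates. The neuronal regulators have a median length of 3870 bases and the core rows one of 2414, and snRNP rows one of 1067. With the median of each gene's length decile removed, the median was 0.09 for neuronal regulators and -0.11 for core rows, a difference of 0.21. Level showed little relation to the ratio, with a rho of -0.09 between log2 ratio and mean FPKM across members.

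**Figure D4:**
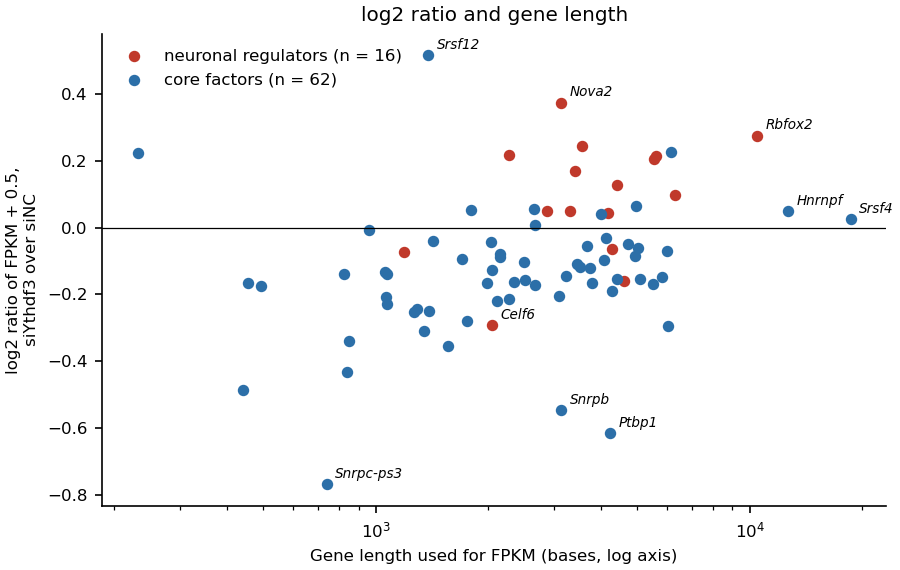
log2 ratio of FPKM + 0.5, siYthdf3 over siNC, against gene length in bases on a log axis for the 78 members that passed the filter (red, neuronal regulators; blue, core factors). Short core rows extend lower, and Ptbp1 and Snrpb lie below other members of their length.

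The libraries also differed in markers of cell types. Pan-neuronal markers were higher in siYthdf3, with a median log2 ratio of 0.26, 10 of 12 intervals above 1 and 1 below, and summed levels of 2271 FPKM in siYthdf3, against 1954 FPKM in siNC. Cell cycle markers were lower, with 12 of 12 intervals below 1, sums of 208 FPKM in siYthdf3, against 406 FPKM in siNC, and Mcm3 at -1.62. Radial glia and progenitor markers had 9 of 12 intervals below 1 and 0 above, sums of 1409.9 FPKM in siYthdf3, against 2089.6 FPKM in siNC, and Eomes at -1.96. No marker of these 3 lists was at 0 in either library. The median of neuronal regulators, 0.11, was thus below that of pan-neuronal markers, and the core median of -0.14 lay between those of the neuronal and progenitor markers. Their part in the members' ratios was not tested.

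Of the other cell types, the 9 astrocyte markers had a median of 0.01, with sums of 250.2 FPKM in siYthdf3, against 175 FPKM in siNC. Gfap, at 1.04, held nearly all of that difference, and without it the sums were 109 FPKM in siYthdf3, against 107 FPKM in siNC. Slc1a2 was at 0.80 and Gja1 at -0.68, and the median of the 9 markers was -0.04 after removal of a length trend. A mean of at least 20 FPKM keeps Gfap but drops Slc1a2, Gja1 and Slc4a4, and the median of the markers left was 0.50. Oligodendrocyte lineage markers had 5 of 7 intervals below 1 and sums of 23.3 FPKM in siYthdf3, against 38.4 FPKM in siNC. Microglia markers summed to 5.78 FPKM in siYthdf3, where 1 of 6 was at 0, and 9.93 FPKM in siNC. Fibroblast, pericyte and meningeal markers summed to 153 FPKM in siYthdf3, against 131 FPKM in siNC, where 1 of 7 was at 0, and most of both sums was Acta2, at 147 FPKM in siYthdf3, against 121 FPKM in siNC. Their median log2 ratio, -0.59 over the 5 that passed the filter, thus had the opposite sign to the difference in sums, and at a mean of at least 5 or 20 FPKM, which leaves Acta2 alone, it was 0.28. The 6 endothelial markers were close to absent, with sums of 0.753 FPKM in siYthdf3, against 0.991 FPKM in siNC.

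**Figure D5:**
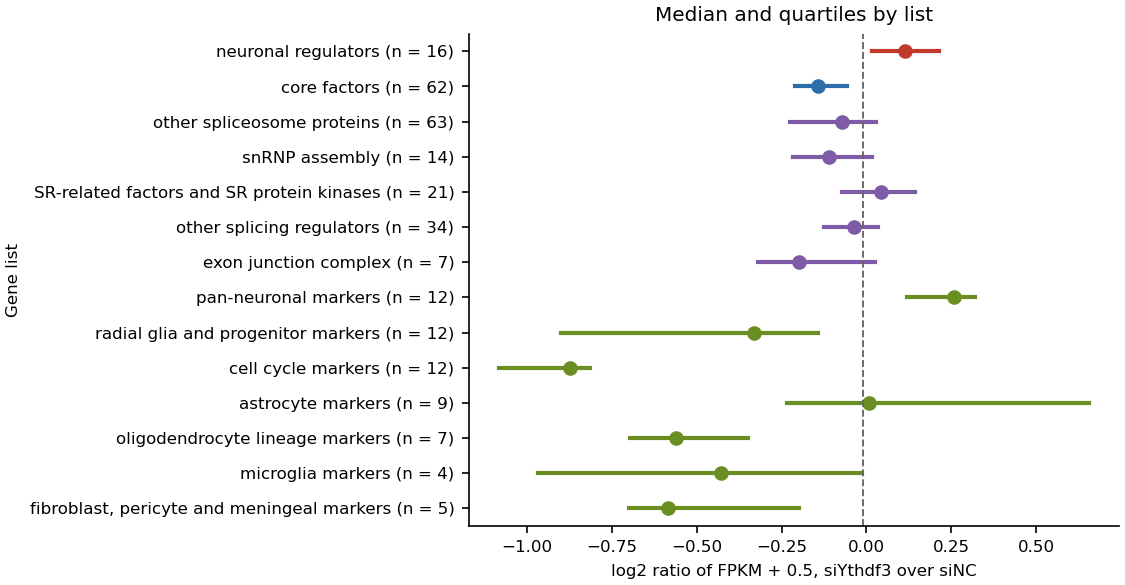
Median log2 ratio of FPKM + 0.5, siYthdf3 over siNC (points), and quartiles (lines) of the neuronal regulators (red), core factors (blue), other splicing lists (purple) and cell type marker lists (green), with n genes that passed the filter. The dashed line is the median of all filtered rows. Neuronal regulators at 0.11 and pan-neuronal markers at 0.26 lie right of it, and core factors at -0.14 left of it with cell cycle markers at -0.88 much farther left.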

How the data were processed

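Messenger RNA was measured in 1 siYthdf3 and 1 siNC library, grouped by their titles. The authors deposited FPKM values per gene, with symbols, coordinates and lengths, per the file headers. Tools listed in the submitters' processing notes, with no role given, are STAR 2.7.6a, StringTie 2.1.4, fastp 0.23.2, edgeR 3.40.2, and featureCounts and Subread 1.5.1. For build, annotation release, strand use and collapsing by molecular identifier nothing is stated (not given in the sources used here).

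Multiplied by gene length, 100% of FPKM values were whole multiples of 1 step per library, within 0.05 of a read, which gave reads and depth. A row at 0 allows up to 3 reads, 0.133 FPKM in siYthdf3 and 0.195 FPKM in siNC at 1 kilobase. No count test was run with 1 library a group. The measure was log2 of the ratio after adding 0.5 FPKM, for rows that averaged 1 FPKM or more, and it understates differences of low genes. Counting intervals are exact Clopper-Pearson 95% intervals of the siYthdf3 share of a gene's reads, turned into an FPKM ratio. They are too narrow where reads copy 1 molecule.

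All members are named or counted. From each of 13 further lists (219 entries, 214 matched by symbol) up to 4 genes with the largest log2 ratios plus any 2-fold apart were taken, and the row with the highest mean where a symbol had several; not all of these are printed. Members and lists were chosen with earlier results of these data known. No protein sequences were used. The calculation was checked on simulated data. Calculations used Python 3.11.15, numpy 2.4.6, pandas 2.3.3, scipy 1.17.1 and matplotlib 3.10.9.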

Additional observations from a re-analysis of the deposited data

How the results depend on the processing

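The neuronal median stayed between 0.09 and 0.19 and the core median between -0.17 and -0.09 under 12 settings each. These included other pseudocounts and filters, TPM, centring, rescaling without mitochondrial and the top 20 rows, removal of a length trend, and narrower neuronal or core groups. Of 78 members 71 kept their sign under every setting run. Rescaling to TPM moved the median of all rows to 0.04, against -0.01 as deposited, and there 8 core intervals lay above 1 and the hnRNP median was -0.066. Core intervals below 1 numbered 40 in the main setting, 33 with TPM, 36 after length removal and 35 with a 99% interval. Celf6, the neuronal regulator with an interval below 1, left a count of 0 with TPM, centring, length removal, a 99% interval, and means of at least 5 or 20 FPKM. At a mean of at least 5 FPKM, which leaves out Nova1 and Ptbp3, the NOVA median was 0.37 and the PTBP median -0.22. The U2AF median was -0.056 after length removal, and at 20 FPKM, which leaves Elavl3 alone, the ELAVL median was 0.22. At 1.5-fold, 2 members were lower. The filter of 20 FPKM and the removal of pseudogene and like rows were added after the data were seen. No paired analysis was possible because each group has 1 library, and none could be left out. Depth limits members with few reads, such as Snrpg, Srsf12 and Nova1.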
